A study of Mus musculus with 12 samples.

Results

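The genes described here encode enzymes and regulators of cholesterol and fatty acid synthesis, together with Thrsp, and were followed in mouse dorsal root ganglia after sciatic nerve injury (SNI). They were chosen by symbol from a list of known pathway genes, with earlier results of these data known. They are 33 of the 23238 genes counted, with 18 in the sterol branch and 15 in the fatty acid branch. All 33 passed the filter on low counts. The ganglia, which hold the cell bodies of sensory neurons with axons in the sciatic nerve, came from lumbar levels 3 to 5 of C57BL/6 mice at postnatal week 8, per the labels. There were 4 groups of 3 libraries: Female sham, Female SNI, Male sham and Male SNI, where sham stands for the control operation. The labels name no transgene or drug for any group. The sources used here give neither the kind of injury nor the time from operation to dissection. The labels do not say whether the 3 libraries of a group came from separate animals or pools, so p-values reflect library-to-library spread only, part or all of which may be technical.

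Cholesterol is built from acetyl-CoA through mevalonate, isoprenoids and squalene to lanosterol, and a last series of enzymes trims lanosterol to cholesterol. Transcription of these enzymes is driven by the factor SREBP2 (gene Srebf2), which the protein Insig1 holds back in the endoplasmic reticulum when sterols are plentiful. Fatty acids are built from cytosolic acetyl-CoA by acetyl-CoA carboxylase and fatty acid synthase, under control of SREBP1 (gene Srebf1), LXR and thyroid hormone receptors, and are then lengthened, desaturated and activated. Thrsp, also called Spot 14, is a small protein induced by thyroid hormone that promotes lipid synthesis in liver, fat and mammary gland. In peripheral nerve and ganglion these pathways serve the myelin of Schwann cells, the membranes of satellite glia and the surface of growing axons.

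The promoters of the 2 genes that moved the most are shown because the results below turn on them. Each stretch is taken from the 250 bases before a transcription start in RefSeq (GRCm38.p6, the build also called mm10), on the strand of the gene, 5′ to 3′, with CCAAT boxes (CCAAT, or ATTGG on the opposite strand, the NF-Y motif) and the E box CACGTG in capitals. Thrsp lies on the minus strand of chromosome 7 (97412933 to 97417550) and the stretch is chr7:97417551-97417800. Hsd17b7 lies on the minus strand of chromosome 1 (169949535 to 169969242) and the stretch is chr1:169969243-169969455. The start in the table lies inside the annotated gene, so the last 37 of the 250 bases, which fall within the gene, are left out and 213 are shown.
Thrsp: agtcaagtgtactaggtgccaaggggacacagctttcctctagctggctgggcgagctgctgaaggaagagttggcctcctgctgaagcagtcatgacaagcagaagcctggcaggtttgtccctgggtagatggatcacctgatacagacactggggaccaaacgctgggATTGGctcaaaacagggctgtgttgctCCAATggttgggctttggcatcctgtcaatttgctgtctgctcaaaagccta
Hsd17b7: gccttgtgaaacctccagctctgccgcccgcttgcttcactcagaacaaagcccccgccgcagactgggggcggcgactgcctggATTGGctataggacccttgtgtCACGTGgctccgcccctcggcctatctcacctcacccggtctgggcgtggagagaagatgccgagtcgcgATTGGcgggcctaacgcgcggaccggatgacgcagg
Promoters of 27 of the 33 genes were found by symbol. None was found for the other 6, Fdps, Fdft1, Sqle, Scd1, Scd2 and Fads1, so these were not searched. In windows of 300 bases (250 before and 50 after the start, any annotated start, both strands), CCAAT was found in 15 of 15 sterol branch genes and 8 of 12 fatty acid branch genes, against 42.3% of 11321 tested genes with a promoter in the table. TCACNCCAC, a form of the sterol regulatory element, was found in Hmgcs1 alone among the 27 members searched, at 137 to 129 bases before its start. It was found in 1.42% of the tested genes. CACGTG was found in Hsd17b7, Dhcr7, Insig1 and Elovl5 and in 11.3% of the tested genes. The DR4 element, 2 direct repeats with a gap, as bound by LXR and thyroid hormone receptors, was found in no member searched and in no tested gene. These are matches of letters and say nothing on binding.

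The total count per library was 12476606 to 15520746. Atf3, a factor induced by axon damage, had 275 CPM (counts per 1000000 after scaling of the libraries) or more in each SNI library, while no sham library exceeded 56.7 CPM. Xist and Y-linked transcripts matched the sex labels in all 12 libraries, and the sensory neuron markers summed to at least 11770 CPM in each. Male SNI replicate 2 and Female sham replicate 2 stood apart on the first principal component, with scores of 99.9 and 47.5 against -32.8 to 0.963 in the others. For the lipid genes, Male SNI replicate 2 held the highest value of 10 members and the lowest of 10 others among the 12 libraries. Over all tested genes it held 1 of these extremes for 46.5%. Results are therefore given with and without these 2 libraries where the call or the value differs.

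Few of these genes passed the test for injury in the fit of all 12 libraries. Averaged over the sexes, Hsd17b7 rose 2.02-fold, Thrsp fell by 59.5%, and Fads1 rose by 30.2%, while the other 30 members did not pass a Benjamini-Hochberg adjusted p of 0.05 in edgeR's quasi-likelihood test over 15036 genes. The 3 calls are 9.09% of the members, near the 6.52% called among all tested genes (3.78% higher and 2.73% lower). Their number is therefore no result about the group. Without Male SNI replicate 2 and Female sham replicate 2, 7 members were called (21.2%, beside 12.1% of all tested genes). In the fit of all 12 libraries 10 of the 33 members had an unadjusted p under 0.05, a larger share than the 2764 of all 15036 genes. The members were chosen with earlier results of these data known, so this difference in shares was not tested. The sterol branch had 1 gene that rose, none that fell and a median log2 change of 0.10. In the fatty acid branch 1 rose and 1 fell, with a median of 0.014, beside a median of 0.0031 over all tested genes. For 4 members the SNI range lay clear of the sham range in both sexes: Hsd17b7, Fads1 and Acly higher (3.67% of all genes) and Thrsp lower (2.82%), beside 6.49% of all genes with either direction. Within females alone 7 members lay higher without overlap and 4 lower (13.1% and 13.4% of all genes), and within males 5 and 3 (9.09% and 8.83%). For all 30 members that did not pass, the 95% interval of the change excluded a 2-fold change in either direction. It excluded even a 1.5-fold change for 22 of them, and reached it for Mvd, Idi1, Srebf1, Fasn, Acaca, Fads2, Acsl4 and Acss2.

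**Figure D1:**
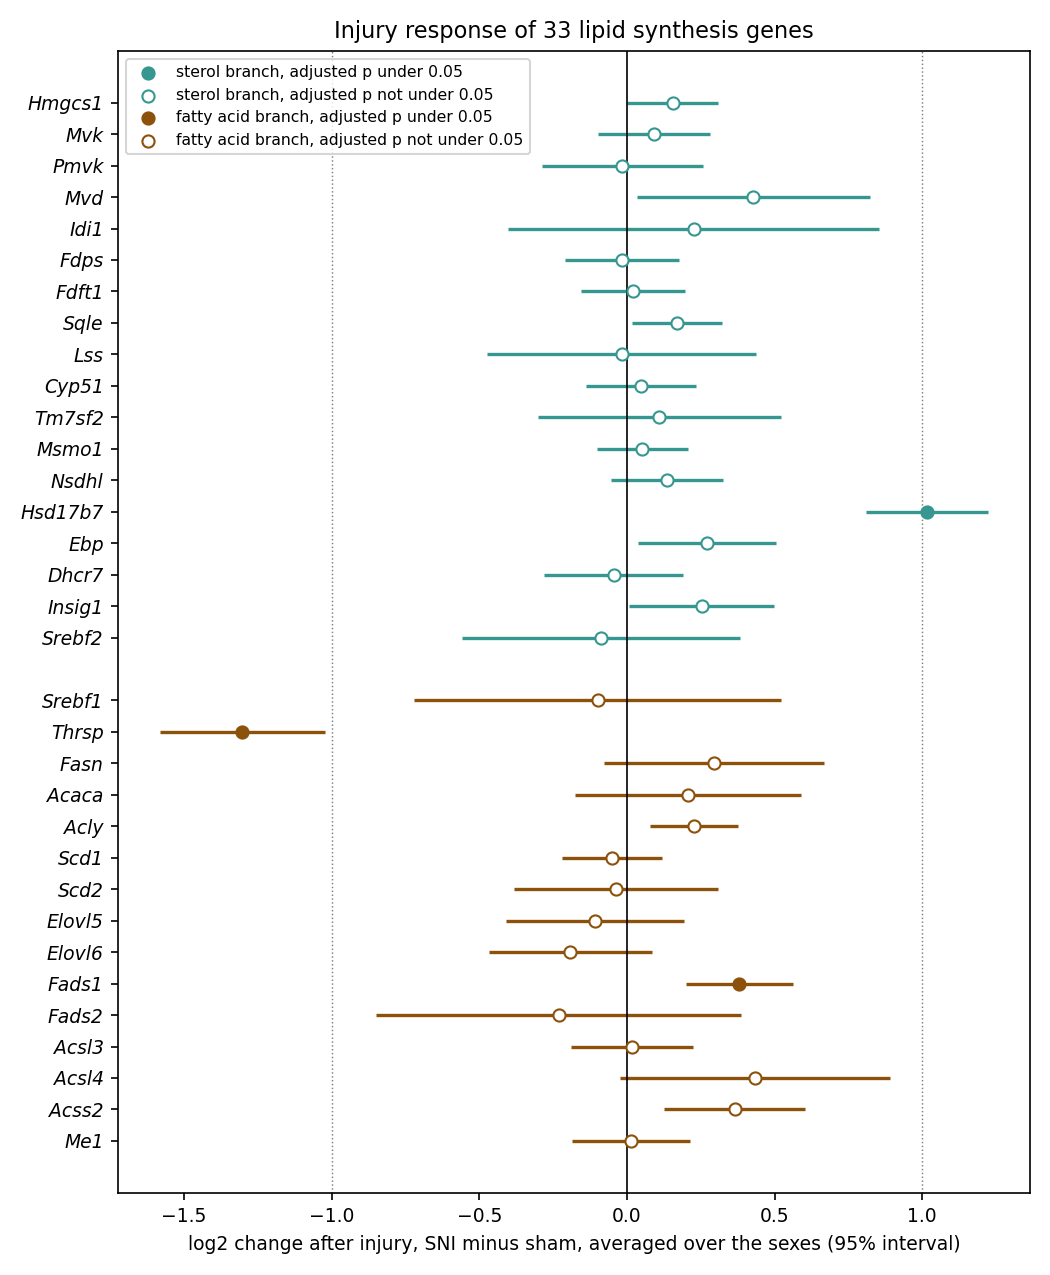
Change after injury of each of the 33 genes, SNI minus sham on the log2 scale averaged over the sexes, as the estimate with its 95% interval. Filled points mark the 3 genes with an adjusted p under 0.05; Hsd17b7 and Thrsp lie near or beyond the dotted lines at a 2-fold change, and every other interval stays inside them.

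The first sterol enzymes, from acetyl-CoA units to squalene epoxide, gave no call. Hmgcs1, the synthase that makes HMG-CoA at the entry of the pathway, was at 848, 835 and 888 CPM in Female sham replicates 1 to 3 and at 1084, 1021 and 999 CPM in Female SNI. In males it was at 948, 942 and 827 CPM in sham and at 958, 890 and 938 CPM after injury. The female groups did not overlap and the male groups did, and the averaged change was 0.15 ± 0.07 (log2, SE; adjusted p = 0.27). Sqle, the epoxidase that opens the sterol-specific part, had 167 ± 4.85 CPM (SD, n = 3) in Female sham, 193 ± 3.59 in Female SNI, 164 ± 11.2 in Male sham and 178 ± 7.03 in Male SNI, a change of 0.17 ± 0.07 (adjusted p = 0.215). The mevalonate kinases Mvk and Pmvk were at 0.09 ± 0.09 and -0.02 ± 0.13, the farnesyl and squalene synthases Fdps and Fdft1 at -0.02 ± 0.09 and 0.02 ± 0.08, and the isopentenyl isomerase Idi1 at 0.23 ± 0.29. Idi1 rested on single libraries. Male SNI replicate 3 was at 52.8 CPM against 11.2 to 27.4 CPM in the other 11 libraries, and the change of Idi1 was -0.20 without it. Its lowest value, 11.2 CPM, was in Male SNI replicate 2, and the change was 0.42 without that library. Without Male SNI replicate 2 and Female sham replicate 2 it was 0.31 ± 0.19 (adjusted p = 0.344). Mvd, the decarboxylase that yields the isoprenoid unit, reached 292 CPM in Male SNI replicate 2, against 94.4 to 163 CPM elsewhere. Its change of 0.43 ± 0.18 (adjusted p = 0.225) was 0.19 without that library. Without both Male SNI replicate 2 and Female sham replicate 2 the change of Mvd was 0.27 ± 0.09 (adjusted p = 0.0744). Exons of Fdft1 share 774 bases with Ctsb on the opposite strand within their last 1000 bases (Ctsb at 0.24, adjusted p = 0.0766), and those of Fdps overlap the gene model Gm43738, so the values of both are uncertain. Exons of Hmgcs1 and Idi1 overlap the opposite-strand models Gm48342 (557 bases) and Gm48574 (323 bases), outside their last 1000 bases, and these values are uncertain too.

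Among the enzymes that turn squalene epoxide into cholesterol, Hsd17b7 stood out. It encodes a reductase that removes the keto group left during demethylation of the sterol ring and that can also convert estrone to estradiol. It had 102, 94.2 and 111 CPM in the Female sham libraries and 242, 223 and 214 CPM in Female SNI. In males it was at 120, 87.0 and 106 CPM in sham and at 194, 174 and 213 CPM after injury. Every SNI library lay above every sham library. The change was 1.02 ± 0.10 averaged over the sexes (95% interval 0.81 to 1.22; adjusted p = 1.8e-05), 1.14 ± 0.14 in females (adjusted p = 0.000388) and 0.89 ± 0.14 in males (adjusted p = 0.0028). With any single library left out it lay between 0.96 and 1.08 and passed in all 12 fits. No exon of another annotated gene overlaps it.

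Neighbouring steps of the same demethylation did not pass the test. Cyp51, the demethylase that starts it, was at 0.05 ± 0.09, Msmo1, which oxidises the methyl groups, at 0.05 ± 0.07, and Nsdhl, the dehydrogenase that acts just before Hsd17b7, at 0.14 ± 0.09. Nsdhl had 84.0 ± 5.09 CPM in Female sham and 93.1 ± 4.05 in Female SNI, with 83.5 ± 2.37 in Male sham and 90.8 ± 14.2 in Male SNI. The cyclase Lss was at -0.02 ± 0.21, the reductase Tm7sf2 at 0.11 ± 0.19 and the last reductase, Dhcr7, at -0.04 ± 0.11. Ebp, the isomerase that moves the ring double bond, was at 0.27 ± 0.11 (adjusted p = 0.189), with 75.2 ± 9.38 CPM in Male sham, 113 ± 19.3 in Male SNI, 94.2 ± 14.9 in Female sham and 91.4 ± 4.73 in Female SNI. Without Male SNI replicate 2 and Female sham replicate 2 it was again at 0.27 and passed (adjusted p = 0.0385), as did its change in males (0.45, adjusted p = 0.0326). Exons of Cyp51 overlap those of Akap9 on the opposite strand (Akap9 fell by 0.35, adjusted p = 0.0444), those of Lss an antisense gene at 0.244 CPM, and those of Tm7sf2 overlap Vps51, so these 3 values are uncertain.

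The sterol regulators gave no call either. Insig1 had 51.0 ± 7.44 CPM in Female sham, 58.0 ± 4.81 in Female SNI, 43.6 ± 5.81 in Male sham and 54.5 ± 8.69 in Male SNI, a change of 0.25 ± 0.11 (adjusted p = 0.252). Srebf2 was at -0.09 ± 0.22 (adjusted p = 0.904), and its value in Male SNI replicate 2, 13.4 CPM, was the lowest of the 12, with 27.5 to 43.0 CPM in the other libraries. Summed over the 18 sterol branch genes, the level was 2635 to 2931 CPM in the 6 SNI libraries and 2274 to 2509 CPM in the 6 sham libraries. Without Hsd17b7 the sums were 2423 to 2690 and 2168 to 2412 CPM, still without overlap. Hmgcs1 made up 31.3% to 38.1% of the sum, and without both genes the ranges, 1484 to 1777 and 1341 to 1577 CPM, overlapped. Summed over the fatty acid branch genes, the SNI libraries (2541 to 2776 CPM) overlapped the sham libraries (2414 to 2689 CPM). These sums are descriptions and were not tested.

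In the fatty acid branch the clearest change was that of Thrsp. It had 22.9, 33.4 and 29.0 CPM in the Female sham libraries and 10.7, 10.5 and 10.1 CPM in Female SNI. In males it was at 36.0, 32.2 and 31.9 CPM in sham and at 17.0, 15.4 and 12.5 CPM after injury. No SNI library of either sex reached the lowest sham library. The averaged change was -1.30 ± 0.13 (95% interval -1.58 to -1.02; adjusted p = 3.26e-05), with -1.45 ± 0.19 in females (adjusted p = 0.000645) and -1.16 ± 0.18 in males (adjusted p = 0.00365). It lay between -1.37 and -1.24 with any single library left out and passed in all 12 fits. Fitted on the 6 male libraries alone, the changes of Thrsp and Hsd17b7 in males were -1.15 and 0.90 and did not pass (adjusted p = 0.0527 and 0.0753). Fewer cells of a type that carries Thrsp and less Thrsp RNA per cell cannot be told apart in these bulk samples.

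**Figure D2:**
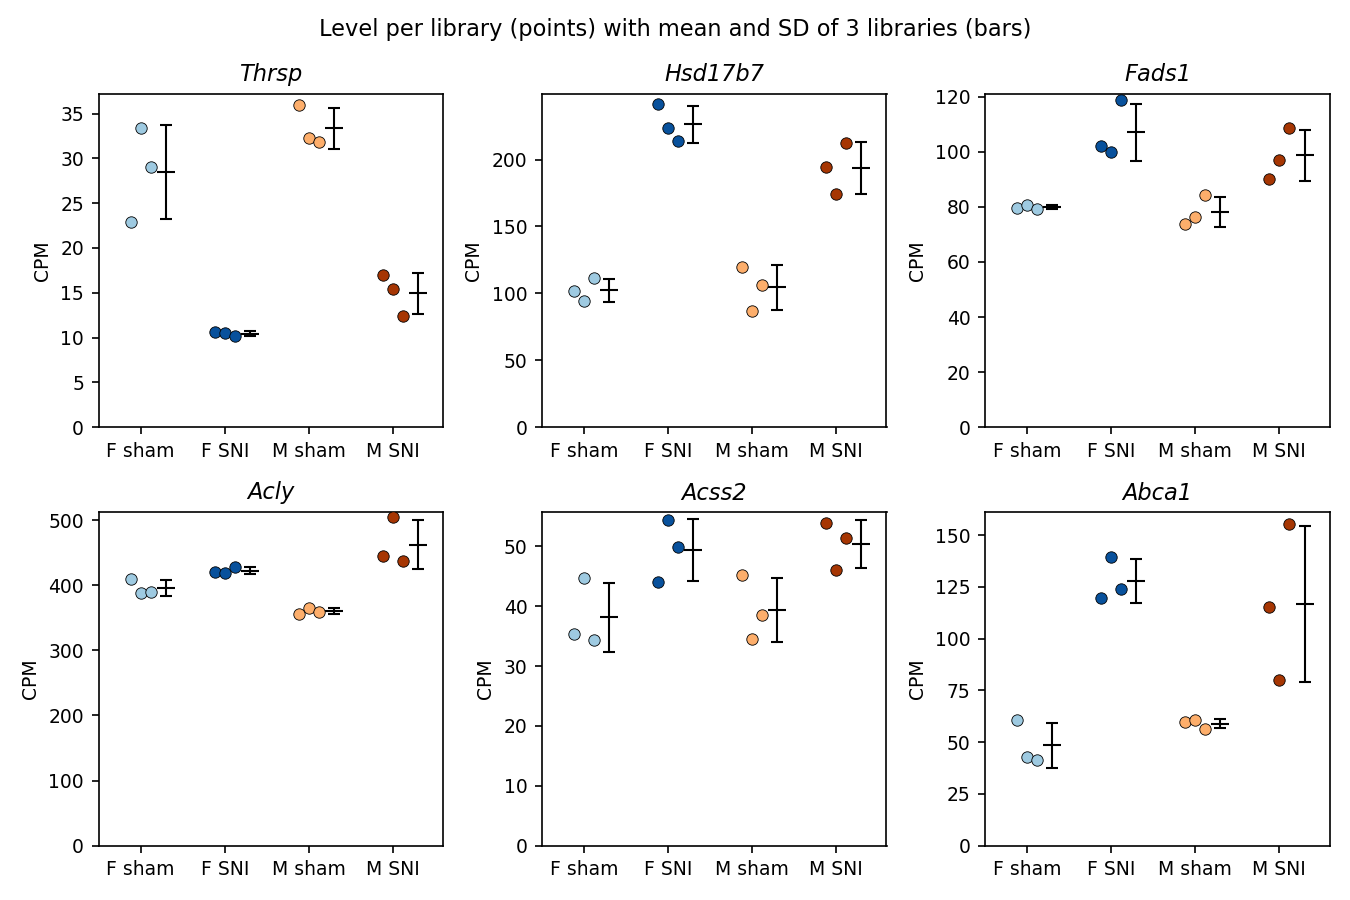
Level in CPM of Thrsp, Hsd17b7, Fads1, Acly, Acss2 and the cholesterol exporter gene Abca1 in each library (points), with mean and SD of the 3 libraries of each group (bars); F is female and M is male. Thrsp sits at 10.1 to 17.0 CPM after injury and at 22.9 to 36.0 CPM in sham, while Hsd17b7 and Abca1 are higher in every SNI library than in every sham library.

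None of the enzymes that supply and build the fatty acid chain passed the test in either direction. Acly, which makes cytosolic acetyl-CoA from citrate, had 410, 389 and 389 CPM in the Female sham libraries and 420, 419 and 428 CPM in Female SNI. In males it was at 356, 365 and 358 CPM in sham and at 445, 505 and 437 CPM after injury. Its SNI and sham libraries did not overlap, yet the change of 0.23 ± 0.07 (interval 0.08 to 0.38) did not pass (adjusted p = 0.0742). Acss2, which makes acetyl-CoA from acetate, came closest to the threshold of the genes that missed it, at 0.37 ± 0.11 (adjusted p = 0.0705), with 38.2 ± 5.77 CPM in Female sham, 49.4 ± 5.23 in Female SNI, 39.4 ± 5.38 in Male sham and 50.5 ± 4.01 in Male SNI. Without Male SNI replicate 2 and Female sham replicate 2 both passed, at 0.19 (adjusted p = 0.0476) and 0.47 (adjusted p = 0.00457). Exons of Acss2 overlap those of Gss and Ggt7 on the opposite strand, so its value is uncertain. Me1, the malic enzyme that supplies NADPH, was at 0.01 ± 0.09, and is uncertain through 30 exon bases shared with the antisense gene A330041J22Rik.

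Fasn, the fatty acid synthase, and Acaca, the carboxylase before it, had 1 library far above the rest. Male SNI replicate 2 held 776 CPM of Fasn against 270.0 to 416 CPM elsewhere, and 135 CPM of Acaca against 49.3 to 80.0 CPM. Their averaged changes were 0.29 ± 0.17 and 0.21 ± 0.18 (adjusted p = 0.418 and 0.622), and 0.067 and -0.030 without that library. Without it and Female sham replicate 2 they were 0.087 and 0.018. Srebf1, the main activator of both genes, had its lowest value in Male SNI replicate 2, 9.37 CPM against 13.3 to 37.2 CPM. Its change was -0.10 ± 0.29. Exons of Srebf1 overlap Rai1 on the opposite strand over 109 bases, so this value is uncertain.

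Of the genes that lengthen and desaturate fatty acids, Fads1 was the member just inside the threshold. Fads1 encodes the delta-5 desaturase that makes arachidonic acid and other long polyunsaturated chains. It had 79.4, 80.7 and 79.3 CPM in the Female sham libraries and 102, 100.1 and 119 CPM in Female SNI. In males it was at 73.9, 76.2 and 84.2 CPM in sham and at 90.3, 97.2 and 109 CPM after injury. The groups did not overlap in either sex, and the change was 0.38 ± 0.08 (interval 0.20 to 0.56; adjusted p = 0.0144). It passed in 11 of 12 fits with 1 library left out, the exception being that without Female SNI replicate 3 (0.34, adjusted p = 0.0539). It did not pass within females (0.42 ± 0.12, adjusted p = 0.0834) or males (0.34 ± 0.12, adjusted p = 0.196) alone. Without Male SNI replicate 2 and Female sham replicate 2 it passed in females (0.44, adjusted p = 0.0368) and not in males (0.36, adjusted p = 0.106).

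Its partner desaturase Fads2, which acts first on the same chains, was low, at 1.27 to 4.01 CPM, and at -0.23 ± 0.29. The stearoyl-CoA desaturases Scd1 and Scd2, which make monounsaturated chains, were at -0.05 ± 0.08 and -0.04 ± 0.16, and the elongases Elovl5 and Elovl6 at -0.11 ± 0.14 and -0.19 ± 0.13. In Male SNI replicate 2, Scd2 (332 CPM), Elovl5 (93.1 CPM) and Elovl6 (51.1 CPM) each had their lowest value of the 12 libraries. Of the ligases that activate fatty acids, Acsl3 was at 0.02 ± 0.10, and shares exon bases with Utp14b. Exons of Scd2 and Elovl6 overlap Mir5114 and the antisense model Gm35986, so the values of Acsl3, Scd2 and Elovl6 are uncertain. Acsl4, which prefers arachidonic acid, was at 0.43 ± 0.21 (adjusted p = 0.304). Male SNI replicate 2 (54.2 CPM of Acsl4) and Female sham replicate 2 (53.6 CPM) had the lowest values of their groups. Without these 2 libraries its change was 0.50 ± 0.12 and passed (adjusted p = 0.00599). In that fit 7 of the 33 members were called, 21.2% beside 12.1% of 15290 tested genes: the 3 above and Ebp, Acly, Acss2 and Acsl4, all of these 4 upward.

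**Figure D3:**
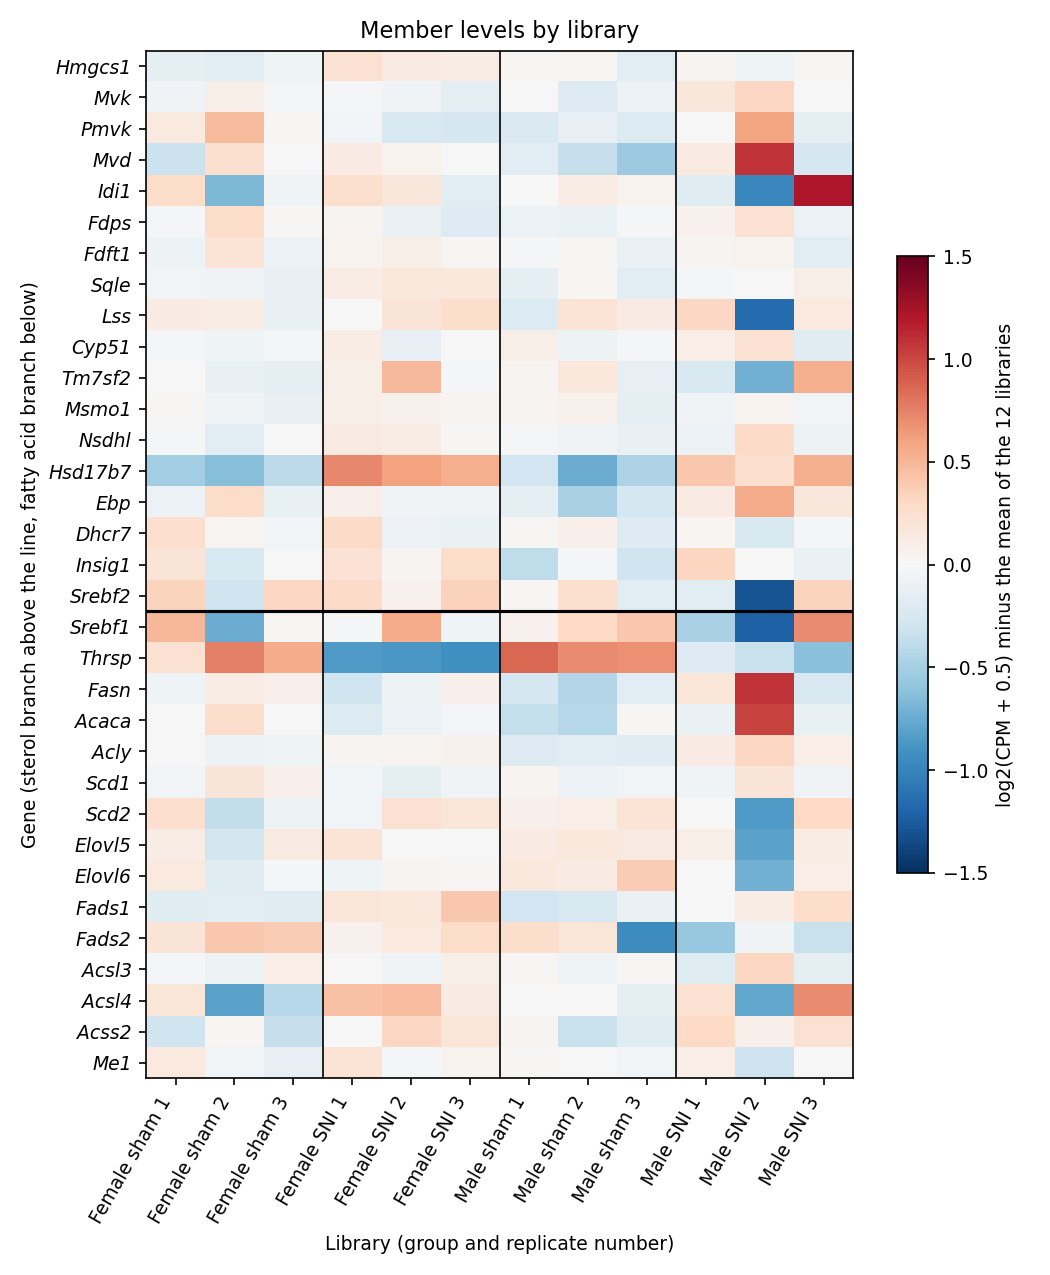
Level of each gene in each library as log2(CPM + 0.5) minus its mean over the 12 libraries, with sterol branch genes above the horizontal line and fatty acid branch genes below it. Hsd17b7 and Thrsp differ between sham and SNI columns in both sexes, and the column of Male SNI replicate 2 holds the highest or lowest value of 20 of the 33 genes.

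The 2 sexes were compared by the interaction of sex and injury, that is, the male change less the female change. No member passed (smallest adjusted p = 0.647), as was true of all 15036 genes (0% called), of which 1100 (7.32%) had an unadjusted p under 0.05. Of the members 4 had one: Pmvk, Ebp, Fasn and Acaca. For Thrsp the difference was 0.29 ± 0.26 and for Hsd17b7 -0.25 ± 0.19 (adjusted p = 0.714 and 0.689). The widest gaps were those of Fasn (0.87 ± 0.35), Acaca (0.82 ± 0.36), Pmvk (0.77 ± 0.25) and Mvd (0.71 ± 0.37), and all 4 had their highest value in Male SNI replicate 2. Without that library and Female sham replicate 2 the gaps were 0.37 ± 0.18, 0.25 ± 0.20, 0.38 ± 0.16 and 0.09 ± 0.19, with 0.14 ± 0.27 for Thrsp and -0.12 ± 0.17 for Hsd17b7, and again no member passed (smallest adjusted p = 0.906). Within females 2 members were called, Hsd17b7 higher and Thrsp lower, beside 2.89% of all genes (1.6% higher, 1.29% lower). The same 2 were called within males, beside 2.13% of all genes (1.65% higher, 0.486% lower). In sham ganglia no member differed between males and females (smallest adjusted p = 0.938; 0.0399% of all genes called, 0.0266% higher in males and 0.0133% lower) and 1 had an unadjusted p under 0.05 (4.58% of all genes), with differences from -0.46 for Fads2 to 0.26 for Srebf1.

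**Figure D4:**
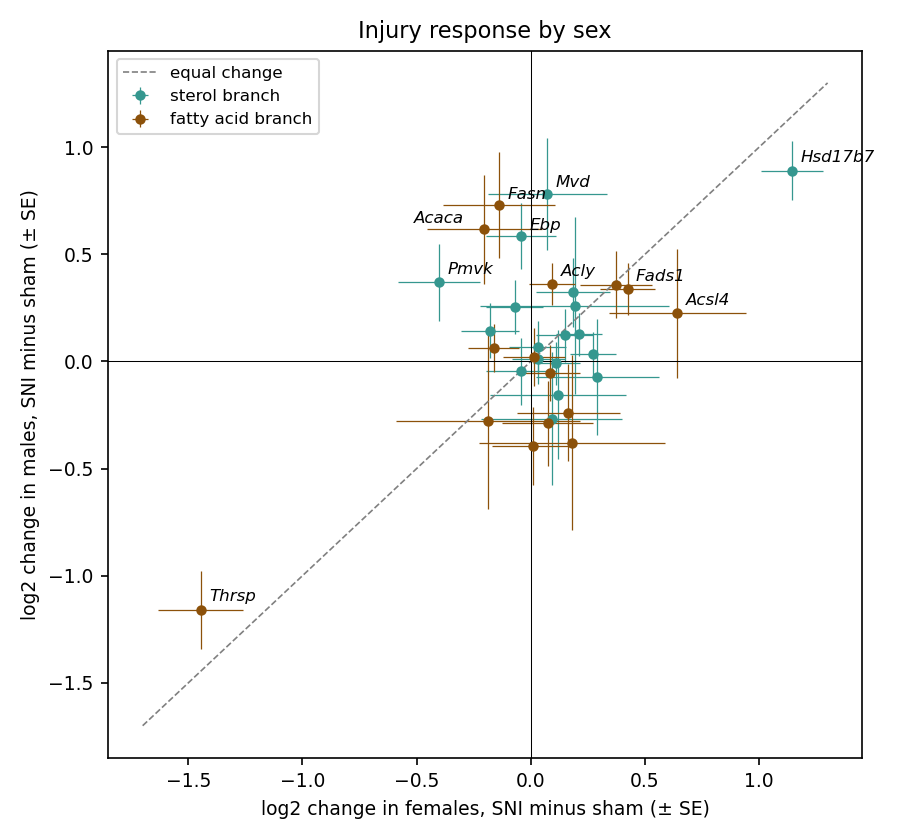
Log2 change after injury in females (horizontal axis) and in males (vertical axis) for the 33 genes, with the SE of each; the dashed line marks equal change. Hsd17b7 and Thrsp lie near the line at opposite ends, and Fasn, Acaca, Mvd and Pmvk lie above it.

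Other genes of these pathways were read from fixed lists. Of 11 tested further genes of sterol synthesis, uptake and its control, none passed and the median change was 0.0051. Of 24 further genes of fatty acid and glycerolipid synthesis 2 rose and 1 fell, beside 3.78% and 2.73% of all tested genes, and the median was 0.062. The 2 that rose, Dgat1 at 0.65 ± 0.17 (adjusted p = 0.0307) and Dgat2 at 0.61 ± 0.16 (adjusted p = 0.0333), encode the enzymes of the last step of triglyceride synthesis, and they passed in only 5 and 3 of the 12 fits with 1 library left out. Dgat1 was at 13.7 to 17.6 CPM in sham and 19.1 to 37.8 CPM in SNI libraries. Acsl6, a ligase for long-chain fatty acids, fell by 0.52 ± 0.12 (adjusted p = 0.0152), from 29.9 to 42.3 CPM in sham libraries to 21.6 to 26.4 CPM after injury. It did not pass without Female SNI replicate 3 or Male sham replicate 1, and is uncertain through 202 exon bases shared with the antisense model Gm12224.

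None of 9 tested regulators, among them the thyroid hormone receptor genes Thra and Thrb that act on Thrsp in liver, passed (median -0.045). Of 11 genes of sterol efflux, storage and LXR response, 1 rose and none fell, beside the same 3.78% and 2.73%, with a median of 0.097. This was Abca1, which exports cholesterol from cells, at 1.19 ± 0.15 (adjusted p = 0.000216). It had 60.9, 43.0 and 41.5 CPM in the Female sham libraries and 120, 140 and 124 CPM in Female SNI. In males it was at 59.8, 60.6 and 56.4 CPM in sham and at 115, 79.8 and 155 CPM after injury, again with no overlap. None of 11 tested genes of fatty acid oxidation passed (median -0.073).

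Marker genes of cell types were summed for comparison. The 10 macrophage markers summed to 116 to 186 CPM in sham and 264 to 443 CPM in SNI libraries, and 9 of them rose. The 8 satellite glia markers summed to 405 to 567 CPM in sham and 612 to 707 CPM in SNI libraries, and 1 rose. Of the 9 sensory neuron markers Isl1 and Rbfox3 fell and Elavl3 rose. Their sums were 13390 to 15200 CPM in Female sham, above the 11770 to 12440 CPM of Female SNI, and 12010 to 13320 CPM in Male sham, which overlapped the 12390 to 15860 CPM of Male SNI. The 10 myelinating Schwann cell markers, at 3951 to 6110 and 4263 to 5886 CPM, overlapped and none passed. Of 10 adipocyte markers 5 were abundant enough to be tested and 1, the lipase gene Lipe, rose. Their sums were 42.4 to 61.1 CPM in sham and 52.7 to 58.5 CPM in SNI libraries, while the defining markers Adipoq and Plin1 did not exceed 0.884 and 0.689 CPM in any library. The 8 skeletal muscle markers reached 1583 CPM in a Male SNI library and summed to at most 72.8 CPM in the sham libraries, and none passed. The part of macrophage, neuron, muscle and satellite glia content in the changes of Hsd17b7, Thrsp, Fads1 and Abca1 was not tested.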

How the data were processed

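Polyadenylated RNA was sequenced with the QuantSeq 3′ kit as single reads on a NextSeq 500, per the labels' protocols. Each library has a table of raw read counts by gene symbol, deposited by the authors. Bowtie2, bedtools and mm10 are named in the submitters' processing notes; for versions, strand, multiply mapped reads and duplicates the sources used here say nothing, so genes with overlapping exons (GENCODE vM21) are marked as uncertain. Rows with the same symbol were summed. Genes were kept with filterByExpr (minimum count 10), scaled by TMM, and fitted with edgeR 4.0.16 (R 4.3.3) as 1 coefficient per group over all 12 libraries; quasi-likelihood F tests were two-sided, adjusted by Benjamini-Hochberg over 15036 genes and called under 0.05. CPM uses TMM-scaled totals. The 95% intervals use the moderated degrees of freedom. The fit was tested on simulated counts drawn with the same spread in every library. No simulated library was made to stand apart, so that test does not cover the effect of Male SNI replicate 2. Alternatives used DESeq2 1.42.0, limma 3.58.1, other scalings and filters, a replicate block and left-out libraries. Replicate numbers were not taken as pairs: the deviations of same-numbered libraries correlated above 0.1 in 3 of 18 pairs. All 3 joined a Female sham with a Male SNI library. The highest, 0.43, joined Female sham replicate 2 with Male SNI replicate 2, the libraries that stood apart on the first principal component. Differently numbered libraries of these groups correlated at -0.41 to 0.36. What Female sham replicate 2 and Male SNI replicate 2 share was not tested. The genes, lists and tests were chosen with earlier results of these data known. All members were named; of other lists, values are given for genes that passed. A count of 3 corresponds to 0.193 to 0.240 CPM on the raw totals, before TMM scaling, counting error only. Positions and promoters come from RefSeq GRCm38.p6.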

Additional observations from a re-analysis of the deposited data

How the results depend on the processing

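The calls of Thrsp and Hsd17b7 held under all 22 alternatives run for injury averaged over the sexes, with log2 changes of -1.37 to -1.24 and 0.96 to 1.08. The replicate block gave 936 called genes in place of 980, and changed no call of a member; Dgat2 no longer passed (adjusted p = 0.0526), nor without a filter on low counts (0.0566) or without Male SNI replicate 2 and Female sham replicate 2 (0.0577). Counts moved by more than 1.5 times as follows. For injury averaged over the sexes 2008 genes were called with limma sample quality weights and 1848 without Male SNI replicate 2 and Female sham replicate 2, and 626 (without Female SNI replicate 3) to 1766 (without Male SNI replicate 2) with 1 library left out. In females the count of 435 became 736 with DESeq2, 1562 with quality weights, 905 in a fit of the female libraries alone, 986 without both libraries, and 155 (Female SNI replicate 1) to 1176 (Male SNI replicate 2) with 1 left out. In males 321 became 647, 693, 72 (male libraries alone) and 698 in the same order, and 137 (Male sham replicate 1) to 601 (Male SNI replicate 3) with 1 left out. The 6 genes that differed between the sexes in sham became 11 with DESeq2. Sterol genes that rose numbered 2 with quality weights (Insig1 added), 2 without both libraries (Ebp added) and 1 to 2 with 1 left out (Mvd added without Male SNI replicate 3). Fatty acid genes that rose numbered 3 with DESeq2, 4 with quality weights, 2 with a minimum count of 50 and 4 without both libraries. With 1 left out they numbered 0 to 4 (0 without Female SNI replicate 3, 4 without Male SNI replicate 2). Genes called higher among all tested were 781 of 16506 with DESeq2, 1025 of 15036 with quality weights and 583 of 12105 with that minimum count. Without both libraries they were 1023 of 15290. They were 386 of 15382 without Female SNI replicate 3, 952 of 15349 without Male SNI replicate 2 and 590 of 15356 without Male SNI replicate 3. Members called in females numbered 6 with quality weights, 4 without both libraries and 2 to 4 with 1 left out; in males 4 with DESeq2, 4 with quality weights, 0 from the male libraries alone and 2 to 4 with 1 left out. The cause was not tested.

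Signs of uncalled members near 0 turned. With quality weights Lss was at 0.17, Dhcr7 at 0.0065, Scd2 at 0.035 and Acsl3 at -0.081; without both libraries Lss was at 0.18, Srebf2 at 0.00024, Scd2 at 0.033 and Acsl3 at -0.085. With 1 library left out the ranges crossed 0 for Pmvk (-0.14 to 0.056), Idi1 (-0.20 to 0.42), Fdps (-0.054 to 0.032), Fdft1 (-0.0067 to 0.072), Lss (-0.15 to 0.16), Tm7sf2 (-0.11 to 0.24), Dhcr7 (-0.12 to 0.0030), Srebf2 (-0.29 to 0.088), Srebf1 (-0.46 to 0.081), Acaca (-0.030 to 0.30), Scd2 (-0.17 to 0.10), Elovl5 (-0.18 to 0.019), Acsl3 (-0.068 to 0.060) and Me1 (-0.031 to 0.075).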
